A study of Homo sapiens with 12 samples.

Results

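A set of 10 genes used as markers of kidney tubule injury and repair were followed in cultured tubule cells exposed to CsA: HAVCR1, LCN2, VCAM1, CLU, SOX9, SOX4, SPP1, CD44, VIM and ICAM1. The members were all probe sets, the groups of short probes that measure 1 transcript on the array, annotated to exactly 1 of these genes, which gave 35 of the 54675 probe sets of the table. The 35 comprised 13 for CD44, 6 for SOX4, 4 for CLU, 3 for ICAM1, 2 each for SOX9, SPP1 and VIM, and 1 each for HAVCR1, LCN2 and VCAM1. Of these, 28 had a log2 value above 4 on at least 3 arrays and were tested. The remaining 7 (5 of CD44, 1 of CLU and 1 of SOX4) lay under 4 on all 12 arrays, a range described here as near background.

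The study used 12 Affymetrix arrays and HK-2 cells, which derive from the proximal tubule of a human kidney and were immortalized. There were 4 groups of 3 arrays: CsA for 48 h, control for 48 h, CsA for 12 h and control for 12 h. CsA is read here as cyclosporin A, the calcineurin inhibitor used against transplant rejection, and its dose and vehicle are not stated in the labels. All cultures grew in the same medium with EGF, insulin, transferrin, selenite and hydrocortisone and were nearly confluent when treated, and the labels call the replicates biological without saying what separates them. All arrays come from 1 cell line, so donors are not sampled.

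In the injured kidney, surviving tubule cells lose features of the mature epithelium, switch on developmental and adhesion genes, and either return to a mature state or persist in an inflamed one. HAVCR1, a phosphatidylserine receptor whose outer part is shed into urine, and LCN2, a secreted carrier of bacterial iron chelators, are used as urinary injury markers. SOX9 and SOX4 are transcription factors of kidney development that reappear in regenerating tubules, while VCAM1, an adhesion molecule for leukocytes, marks tubule cells that have not completed repair. CD44, the receptor for the matrix sugar hyaluronan, VIM, an intermediate filament protein of mesenchymal cells, SPP1 (osteopontin), CLU (clusterin, a secreted chaperone) and ICAM1, a receptor for leukocyte integrins, also rise in injured tubules.

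The share of probe sets above 4 was 42.2% to 42.8% over the arrays. Spiked hybridization controls had a median of 7.38 on CsA 48 h replicate 3 and of 9.89 to 11.42 otherwise. Poly-A controls were dim on number 1 of the CsA 48 h arrays (5.04) and of the 48 h controls (4.32), with 8.38 to 10.18 on the remaining 10. The 3′ minus 5′ log2 difference of ACTB, a sign of RNA quality, was 1.22 on CsA 48 h replicate 3 and 1.33 on control 48 h replicate 1, against 0.73 to 0.98 on the others. The median within-group SD of a gene was 0.200 for CsA and 0.147 for control at 48 h, and 0.107 for CsA and 0.103 for control at 12 h. Among proximal tubule markers, CDH6, SLC4A4 and PDZK1 were above background, and 9 of the 12 with a probe set, LRP2, CUBN and AQP1 among them, were near background on all arrays. The epithelial markers EPCAM, KRT8 and KRT18 lay above a log2 value of 13 on all arrays, and CDH1 was near background. All 4 leukocyte and all 5 endothelial markers with a probe set were near background, including PTPRC and PECAM1.

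No member passed limma's test (Benjamini-Hochberg adjusted p under 0.05 over 11154 genes) for CsA against control at either time. At 48 h 0 of 10 members were called, against 1.1% of all genes (0.278% higher and 0.825% lower), and 5 had an unadjusted p under 0.05, against 21.8% of genes. When all 12 arrays shared 1 estimate of the spread, 5 members were called at 48 h: VCAM1, CLU and SOX4 lower, SOX9 and CD44 higher. That fit called 16.1% of genes (6.2% higher and 9.89% lower), and at 12 h 0 members and 0.00897% of genes. Its spread was averaged over the tighter 12 h arrays and the wider 48 h arrays. In simulations made in an earlier analysis of these data, such a fit gave many false calls at 48 h. Their rate is not given here, so which of the 5 calls are false is not known. The CsA and control arrays did not overlap for 6 members at 48 h, 3 above (SOX9, CD44 and VIM) and 3 below (VCAM1, CLU and SOX4), against 29.7% of genes (13.9% above and 15.8% below). At 12 h 0 of 10 members were called, 0 had an unadjusted p under 0.05 and the arrays overlapped for all 10 members, against 0%, 7.68% and 13% of genes. The median log2 change over the members was -0.044 at 48 h and -0.018 at 12 h, beside -0.0050 and -0.0068 over all genes.

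**Figure D1:**
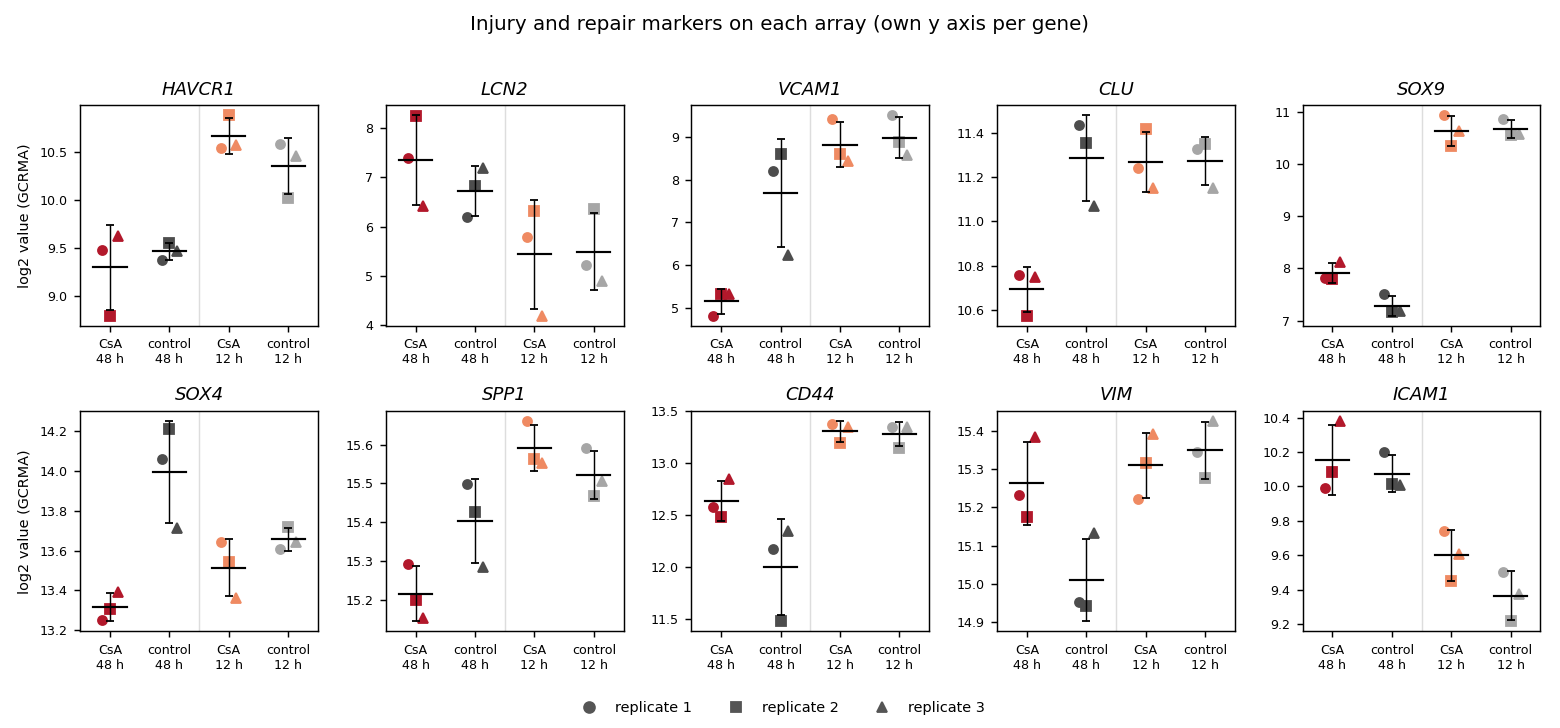
Log2 values (y axes, 1 per gene) of the 10 genes on each of the 12 arrays, by group on the x axes, with replicates as symbols, bars at the mean and whiskers of 1 SD (n = 3 arrays). SOX9 was at most 8.13 at 48 h and at least 10.35 at 12 h, while VCAM1 was lowest with CsA at 48 h (4.81 to 5.32).

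VCAM1 had the largest log2 difference between CsA and control of the 10 genes. Its log2 values were 4.81, 5.32 and 5.32 with CsA at 48 h, against 8.19, 8.61 and 6.24 in the 48 h controls. At 12 h they were 9.43, 8.61 and 8.43 with CsA and 9.50, 8.88 and 8.58 in the controls. Every CsA array at 48 h lay below every other array, and control replicate 3 at 48 h stood between them and the rest. The level with CsA was 5.78-fold lower than in the control at 48 h (log2 change -2.53, SE 0.60, limma adjusted p = 0.0878, and 0.0120 when all arrays shared 1 spread). Since the CsA values approach the range where GCRMA compresses dim signals, the size of this difference is uncertain. Leaving out control replicate 3 gave -3.25 and a call (limma adjusted p = 0.0356), and the adjusted p over all settings tried ran between 0.0120 and 0.640. In bulk RNA a fall of VCAM1 in every cell and a loss of the cells that express it cannot be told apart.

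At 12 h the difference was -0.16 (SE 0.33, 95% interval -0.97 to 0.64). The CsA effect at 48 h minus that at 12 h was -2.37 (SE 0.75), which did not pass (limma adjusted p = 0.147), and 0 of 10 members passed that test, against 1.12% of genes. At an unadjusted p under 0.05 there were 7 members, against 17.4% of genes. Without control replicate 3 at 48 h this difference was -3.09 for VCAM1 and passed (limma adjusted p = 0.0135). At 48 h relative to 12 h VCAM1 fell by 3.67 on the log2 scale with CsA (SE 0.53, limma adjusted p = 1.98e-04), or 12.8-fold. In the controls the change was -1.31 (SE 0.53, limma adjusted p = 0.0659, and 0.0464 with the replicate number as a block), with overlapping arrays. That value was -0.59 without control 48 h replicate 3 (limma adjusted p = 0.200) and -1.77 without control 48 h replicate 2 (0.0236).

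ICAM1, the other leukocyte adhesion molecule of the set, followed the opposite course. The brightest of its 3 probe sets read 9.99, 10.08 and 10.38 with CsA at 48 h and 10.20, 10.02 and 10.01 in the 48 h controls. The 12 h arrays read 9.74, 9.45 and 9.61 with CsA and 9.50, 9.21 and 9.38 in the controls. The 48 h arrays lay above all 12 h arrays, whatever the treatment. ICAM1 rose by 0.55 under CsA (SE 0.12, limma adjusted p = 0.00346) and by 0.71 in the controls (SE 0.12, limma adjusted p = 0.00101) between the times. The CsA difference was 0.08 at 48 h (95% interval -0.25 to 0.41) and 0.24 at 12 h (-0.024 to 0.49), so a change of the size seen in VCAM1 lies outside both intervals. A second probe set, 202638_s_at, gave similar changes with time, 0.62 with CsA and 0.84 in the controls, while the third, 215485_s_at, gave 0.30 and 0.11 and did not pass. On 202638_s_at the CsA arrays at 12 h lay above the controls (log2 change 0.23, 95% interval 0.042 to 0.42, limma adjusted p = 0.687). On the brightest and the third set the 12 h arrays overlapped.

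VCAM1, ICAM1 and LCN2 are textbook targets of the inflammatory factor NF-kB. The 250 bases before their RefSeq starts (GRCh38.p14, plus strand) are printed because VCAM1 fell with CsA between the times while ICAM1 and LCN2 rose. In the controls the changes between the times were -1.31, 0.71 and 1.24. The difference of the CsA effects passed for none of them (limma adjusted p = 0.147, 0.685 and 0.733). The regions are chr1:100719492-100719741 for VCAM1, chr19:10270870-10271119 for ICAM1 and chr9:128149203-128149452 for LCN2. Capitals mark the letters of 5 motifs searched on both strands: the NF-kB consensus, GGAANTTCC, TTCNNNGAA (bound by STAT factors), TGANTCA and TATAAA. GGAANTTCC is a form of the NF-kB element known from ICAM1, added to the search for that reason. TGANTCA is a loose form of the AP-1 motif, with any base allowed at its center.
VCAM1: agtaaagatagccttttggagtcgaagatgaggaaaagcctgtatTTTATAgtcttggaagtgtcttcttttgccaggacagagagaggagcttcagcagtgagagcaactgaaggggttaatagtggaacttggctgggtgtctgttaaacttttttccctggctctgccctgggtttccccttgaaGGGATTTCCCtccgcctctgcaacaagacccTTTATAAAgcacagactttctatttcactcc
ICAM1: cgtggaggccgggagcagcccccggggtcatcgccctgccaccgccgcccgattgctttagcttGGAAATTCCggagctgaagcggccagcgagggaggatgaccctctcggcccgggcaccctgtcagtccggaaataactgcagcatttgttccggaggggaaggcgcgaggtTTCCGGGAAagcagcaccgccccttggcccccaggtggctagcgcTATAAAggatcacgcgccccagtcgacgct
LCN2: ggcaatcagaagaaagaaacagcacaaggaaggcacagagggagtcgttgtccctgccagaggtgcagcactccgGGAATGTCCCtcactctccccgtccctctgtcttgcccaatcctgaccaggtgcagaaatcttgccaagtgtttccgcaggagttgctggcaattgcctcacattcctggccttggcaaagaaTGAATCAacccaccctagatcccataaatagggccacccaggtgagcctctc

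The NF-kB consensus began 62 bases before the start of VCAM1 and 175 bases before that of LCN2. In ICAM1 the variant form began at 186 bases, the STAT motif at 75 and TATAAA at 30 before the start. TATAAA or its complement stood at 205, 31 and 29 bases in VCAM1, the last pair overlapping. TGANTCA stood at 52 bases in LCN2, where it read TGAATCA. Of 35116 RefSeq promoters of the same length, 5.21% held the NF-kB consensus, 0.826% the variant form, 6.57% the STAT motif, 6.57% TGANTCA and 10.7% TATAAA. Promoters of 8 members were in the table. These matches describe the letters in the windows and were not measured for binding. Other forms of the NF-kB element were not searched, so any that stand in the windows are not marked.

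CD44 was lower at 48 h than at 12 h in the controls, and this difference was smaller with CsA. Its brightest probe set, 212063_at, read 12.58, 12.48 and 12.85 with CsA at 48 h, against 12.17, 11.47 and 12.35 in the 48 h controls. At 12 h this set read 13.38, 13.19 and 13.35 with CsA and 13.35, 13.15 and 13.34 in the controls. The 12 h groups overlapped almost fully, and all 48 h arrays lay below them, the controls lowest. CD44 fell in the controls by 1.29 between the times (SE 0.19, limma adjusted p = 3.95e-04) and with CsA by 0.67 (SE 0.19, limma adjusted p = 0.0135). CsA against control gave 0.64 at 48 h (SE 0.24, limma adjusted p = 0.200, and 0.0489 when all arrays shared 1 spread) and 0.026 at 12 h (95% interval -0.18 to 0.23). Without control replicate 2 the 48 h value was 0.38.

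The 8 probe sets of CD44 above background differed in the size of these values, not in their direction at 48 h. Their log2 change with CsA at 48 h ran between 0.52 and 1.52, with a median of 1.32, and on all 8 the CsA arrays lay above the controls, as for 12.5% of the 20631 probe sets tested. The second brightest set, 204490_s_at, read 12.60, 12.32 and 12.71 with CsA at 48 h, against 11.23, 10.93 and 11.47 in the 48 h controls. At 12 h that set read 12.36, 12.09 and 12.48 with CsA and 12.24, 11.96 and 12.22 in the controls. On this set replicates 1 and 3 with CsA at 48 h lay above all 12 h arrays and replicate 2 within their range, while the 48 h controls lay below all other arrays. It was 2.53-fold higher with CsA at 48 h (log2 change 1.34, SE 0.18), but no CD44 set passed in the probe set fit, in which 0.0388% of probe sets were called. Its limma adjusted p of 0.0662 was the lowest of the 8.

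At 48 h relative to 12 h, 7 of the 8 CD44 probe sets were called lower in the controls, by 0.93 to 1.40 on the log2 scale. In that comparison 38.5% of probe sets were called (18% lower). The remaining set, 217523_at, gave -0.71 and was not called. With CsA 1 of 8 was called lower, 212063_at, against 47.4% of probe sets called (23.9% lower). The others lay between -0.076 and 0.24 and were not called. With the mean of the 8 sets in place of the brightest, the change with CsA was -0.024 (limma adjusted p = 0.921). The difference of the CsA effects between the times ran between 0.61 and 1.41 over the sets and did not pass on any of them, against 0.32% of probe sets called. The sets share the same RNA and partly the same transcript, so they are not independent measurements, and an x_at suffix marks probe sets that may share sequence with other genes. With CsA at 48 h 204489_s_at read 11.79, 11.67 and 13.01, the last on the array of dim hybridization controls, whose part in that set's difference was not tested.

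**Figure D2:**
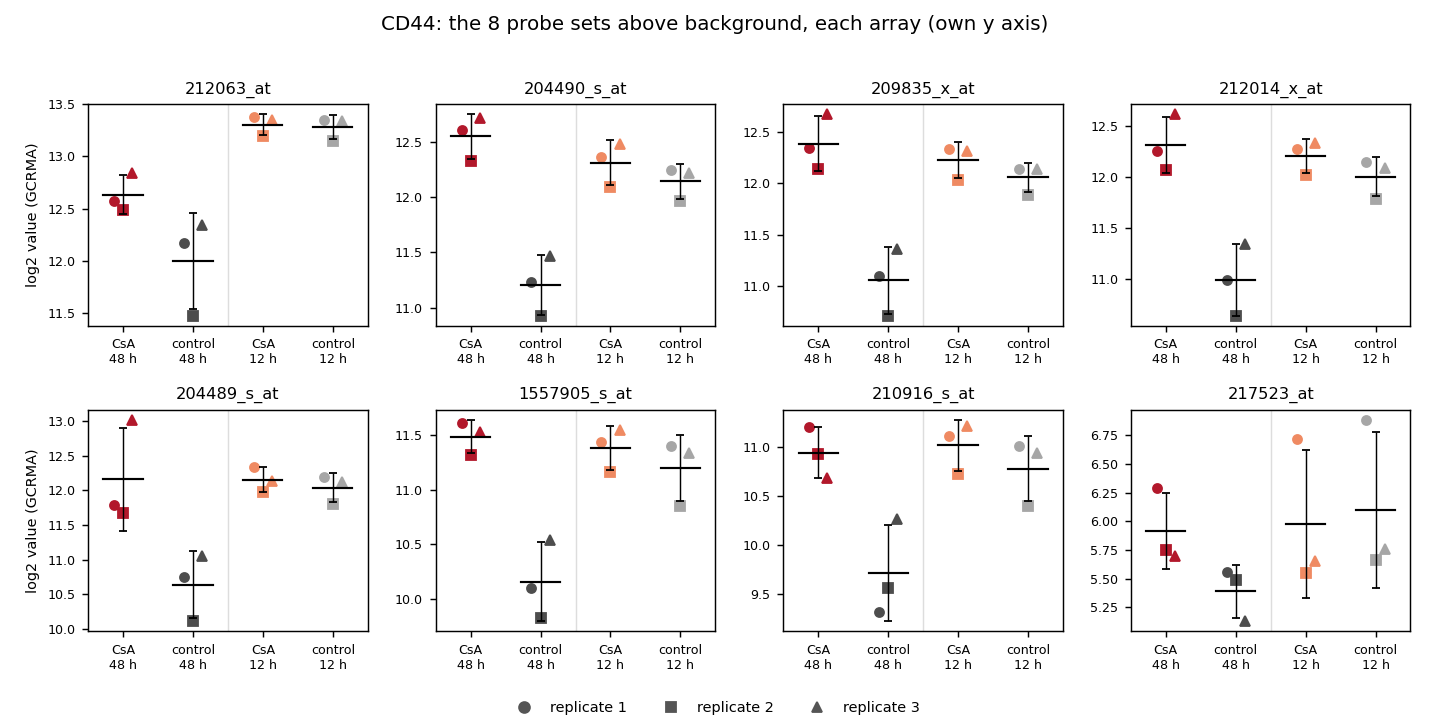
Log2 values (y axes) of the 8 CD44 probe sets above background on each array, by group on the x axes (bars at the mean, whiskers of 1 SD, n = 3 arrays, symbols for replicates). On every set the 3 CsA arrays at 48 h lie above the 3 controls, and for all but 212063_at they overlap the 12 h arrays.

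SOX9 had the largest change with time in the controls. It read 7.82, 7.79 and 8.13 with CsA at 48 h, against 7.51, 7.17 and 7.18 in the 48 h controls. At 12 h SOX9 read 10.93, 10.35 and 10.63 with CsA and 10.87, 10.57 and 10.57 in the controls. The 48 h arrays lay far below the 12 h arrays, and within 48 h the CsA arrays lay above the controls. SOX9 fell 6.62-fold with CsA (log2 change -2.73, SE 0.16, limma adjusted p = 7.60e-07) and 10.4-fold in the controls (-3.38, SE 0.16, adjusted p = 6.51e-07). CsA against control gave 0.62 at 48 h (SE 0.15, limma adjusted p = 0.0916, and 0.0293 when all arrays shared 1 spread) and -0.031 at 12 h (95% interval -0.43 to 0.37). On the second probe set, 202935_s_at, the 48 h difference was 0.64 but the arrays overlapped, with 9.07 on CsA replicate 3 against 7.17 and 6.94 on replicates 1 and 2.

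SOX4, the other SOX factor, had its lowest mean with CsA at 48 h. The brightest probe set read 13.25, 13.30 and 13.39 with CsA at 48 h, against 14.06, 14.21 and 13.71 in the 48 h controls. The 12 h values were 13.64, 13.54 and 13.36 with CsA and 13.61, 13.72 and 13.65 in the controls. CsA at 48 h lay below its controls on all 5 probe sets above background, as for 15% of probe sets tested. The log2 change was -0.68 (SE 0.15, limma adjusted p = 0.0788, and 0.00646 when all arrays shared 1 spread), and over the 5 sets it ran between -1.24 and -0.68 with none passing. At 12 h the change was -0.14 (95% interval -0.35 to 0.068). In the controls SOX4 rose by 0.34 between the times (SE 0.12, limma adjusted p = 0.0457). This call ended in 9 of 12 fits with 1 array removed, without both arrays of dim poly-A controls (0.137), with no filter (0.0757) and with the mean of the probe sets (0.0764). With CsA the change between times was -0.20 (SE 0.12, limma adjusted p = 0.200). Control replicate 3 was the lowest 48 h control on 4 of the 5 SOX4 sets, and it was also the lowest 48 h control for VCAM1, CLU and SPP1.

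**Figure D3:**
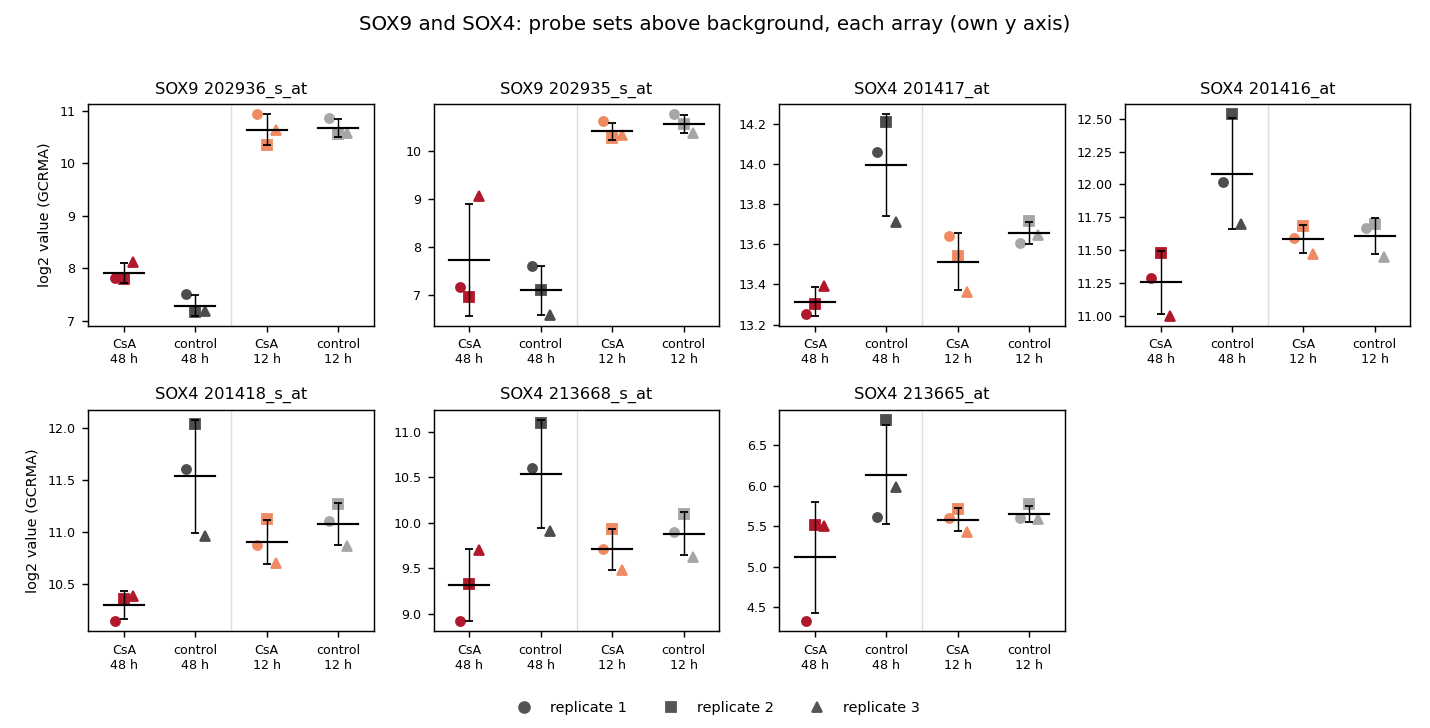
Log2 values (y axes) of the 2 SOX9 and 5 SOX4 probe sets above background on each array, by group on the x axes (bars at the mean, whiskers of 1 SD, n = 3 arrays, symbols for replicates). Both SOX9 sets are lower at 48 h than at 12 h, and on all 5 SOX4 sets the CsA arrays at 48 h lie below the 48 h controls.

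Among the secreted and shed markers, HAVCR1 separated the times and not the treatments. Its single probe set read 9.48, 8.79 and 9.62 with CsA at 48 h and 9.37, 9.55 and 9.46 in the 48 h controls. At 12 h HAVCR1 read 10.54, 10.89 and 10.57 with CsA and 10.59, 10.02 and 10.46 in the controls. The treatments overlapped at both times, and no 48 h array reached a 12 h array. HAVCR1 fell with CsA by 1.37 (SE 0.21, limma adjusted p = 3.29e-04) and in the controls by 0.89 (SE 0.21, limma adjusted p = 0.00601). CsA against control was -0.17 at 48 h (95% interval -0.71 to 0.38) and 0.31 at 12 h (-0.10 to 0.72), so at these times a doubling (a log2 change of 1) with CsA lies outside the intervals.

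LCN2 had the largest SD of the 10 members within 3 of the 4 groups, all but the 48 h controls. Its single probe set read 7.39, 8.24 and 6.42 with CsA at 48 h and 6.19, 6.82 and 7.19 in the 48 h controls. The 12 h arrays gave 5.80, 6.32 and 4.18 with CsA and 5.21, 6.37 and 4.89 in the controls. The 3 arrays of a group lay far apart, most so with CsA at 12 h, and treatments overlapped at both times. LCN2 rose by 1.92 with CsA between the times (SE 0.61, limma adjusted p = 0.0216). This call ended in 3 of 12 fits with 1 array removed, the lowest value being 1.29 without CsA 12 h replicate 3, and with no filter (0.0618) or without both arrays of dim poly-A controls (0.0624). In the controls the change was 1.24 (SE 0.61, limma adjusted p = 0.122). CsA against control was 0.62 at 48 h, with a 95% interval of -0.54 to 1.78, and -0.054 at 12 h (-1.57 to 1.47), intervals that leave room for a 2-fold change in LCN2 with CsA. With 1 array removed the 48 h value ran between 0.18, without CsA replicate 2, and 1.09, without CsA replicate 3, and was 0.35 without control replicate 1.

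CLU was lower with CsA at 48 h, by a small amount relative to VCAM1. Its brightest probe set read 10.75, 10.57 and 10.75 with CsA at 48 h, against 11.44, 11.35 and 11.07 in the 48 h controls. The 12 h values were 11.24, 11.42 and 11.15 with CsA and 11.32, 11.35 and 11.15 in the controls. The CsA arrays at 48 h lay below all 9 other arrays, which overlapped among themselves. CLU was 1.51-fold lower with CsA at 48 h (log2 change -0.59, SE 0.13, limma adjusted p = 0.0795, and 0.00904 when all arrays shared 1 spread), with -0.59 and -0.49 on its other tested probe sets. Between the times CLU fell with CsA by 0.58 (SE 0.12, limma adjusted p = 0.00173), on all 3 sets, and gave 0.011 in the controls (SE 0.12, limma adjusted p = 0.948). At 12 h the CsA difference was -0.0057 (95% interval -0.23 to 0.22).

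SPP1, a secreted ligand of CD44 and of integrins, varied little on its brightest probe set. The brightest probe set read 15.29, 15.20 and 15.16 with CsA at 48 h and 15.50, 15.43 and 15.29 in the 48 h controls. At 12 h it read 15.66, 15.56 and 15.55 with CsA and 15.59, 15.47 and 15.51 in the controls. The CsA arrays at 48 h lay below all 12 h arrays and touched the range of the 48 h controls. SPP1 fell with CsA between the times by 0.37 (SE 0.081, limma adjusted p = 0.00281), a call that ended with the mean of its probe sets (limma adjusted p = 0.381). CsA against control was -0.19 at 48 h (95% interval -0.44 to 0.068) and 0.069 at 12 h (-0.085 to 0.22). The dimmer set, 1568574_x_at, ran between 6.26 and 9.36 over the arrays and gave -0.78 at 48 h with overlapping arrays.

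VIM also varied little on its brightest probe set. Its brightest probe set read 15.23, 15.17 and 15.38 with CsA at 48 h, against 14.95, 14.94 and 15.13 in the 48 h controls. At 12 h it read 15.22, 15.32 and 15.39 with CsA and 15.34, 15.28 and 15.43 in the controls. The 48 h controls lay below all other arrays. VIM fell in the controls between the times by 0.34 (SE 0.090, limma adjusted p = 0.0108), a call that ended with the mean of its probe sets (limma adjusted p = 0.419), and gave -0.047 with CsA (SE 0.090). CsA against control was 0.25 at 48 h (SE 0.11, limma adjusted p = 0.255) and -0.039 at 12 h (95% interval -0.21 to 0.14). The dim second set, 1555938_x_at, ran between 5.66 and 7.62 over the arrays and gave 0.18 at 48 h with overlapping arrays.

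**Figure D4:**
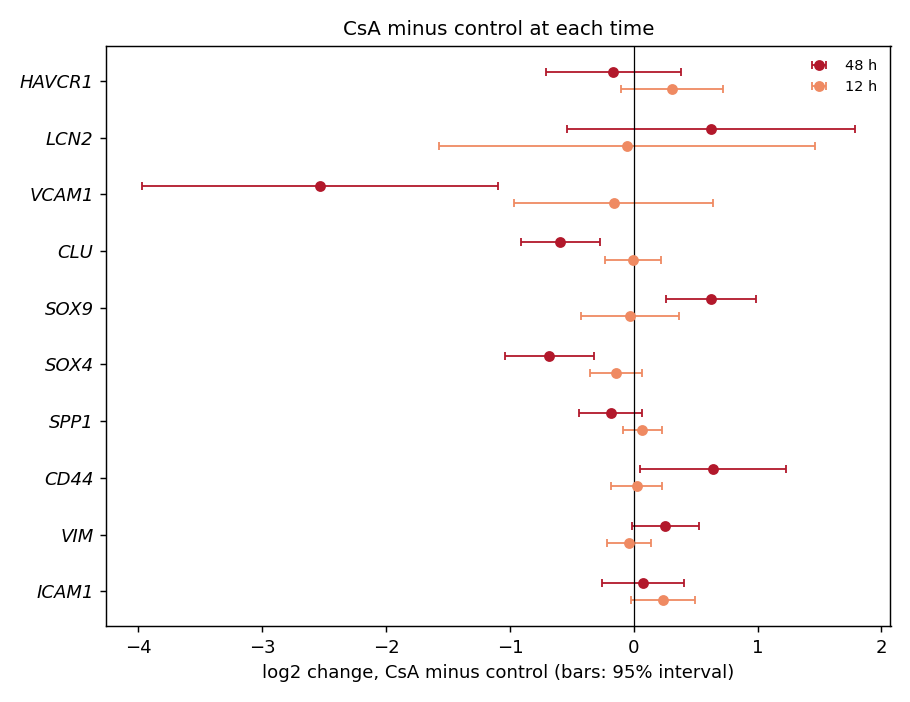
Log2 change of each gene with CsA relative to control (x axis) at 48 h and 12 h, with points at the estimate and bars for the 95% interval of limma's fit of the 6 arrays at that time. At 12 h every interval covers 0, and at 48 h those of VCAM1, CLU and SOX4 lie below 0 and those of SOX9 and CD44 above it, before adjustment for the genes tested.

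More members passed between the times than between CsA and control, and the same held for all genes (1.1% for CsA at 48 h). The time tests used all 12 arrays, and the CsA tests the 6 arrays of a time. With all 12 arrays in 1 fit, 5 members were called for CsA at 48 h. With CsA, 8 of 10 members passed between 48 h and 12 h, 2 higher (LCN2 and ICAM1) and 6 lower (HAVCR1, VCAM1, CLU, SOX9, SPP1 and CD44), against 53.5% of all genes (27.8% higher and 25.8% lower). In the controls 6 passed, 2 higher (SOX4 and ICAM1) and 4 lower (HAVCR1, SOX9, CD44 and VIM), against 45.5% of genes (24.6% higher and 20.9% lower). With the mean of a gene's probe sets, 6 members passed with CsA (52.9% of genes), SPP1 and CD44 no longer among them. In the controls 4 passed that way (45.1% of genes), without SOX4 and VIM. The median log2 change over the members was -0.48 with CsA and -0.23 in the controls, beside 0.034 and 0.028 over all genes. Both comparisons enter the difference of the CsA effects, for which no member passed. The level of each gene by group ordered as follows, from high to low. HAVCR1, SPP1 and SOX9 were highest in the 12 h groups, which overlapped, and the 48 h groups overlapped too for HAVCR1 and SPP1. CD44 and VIM were lowest in the 48 h controls, SOX4, CLU and VCAM1 lowest with CsA at 48 h, and ICAM1 and LCN2 highest in the 48 h groups. For LCN2 the 48 h controls overlapped the 12 h arrays (6.19 on replicate 1, against up to 6.37 at 12 h). The SOX4 arrays with CsA overlapped between the times.

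**Figure D5:**
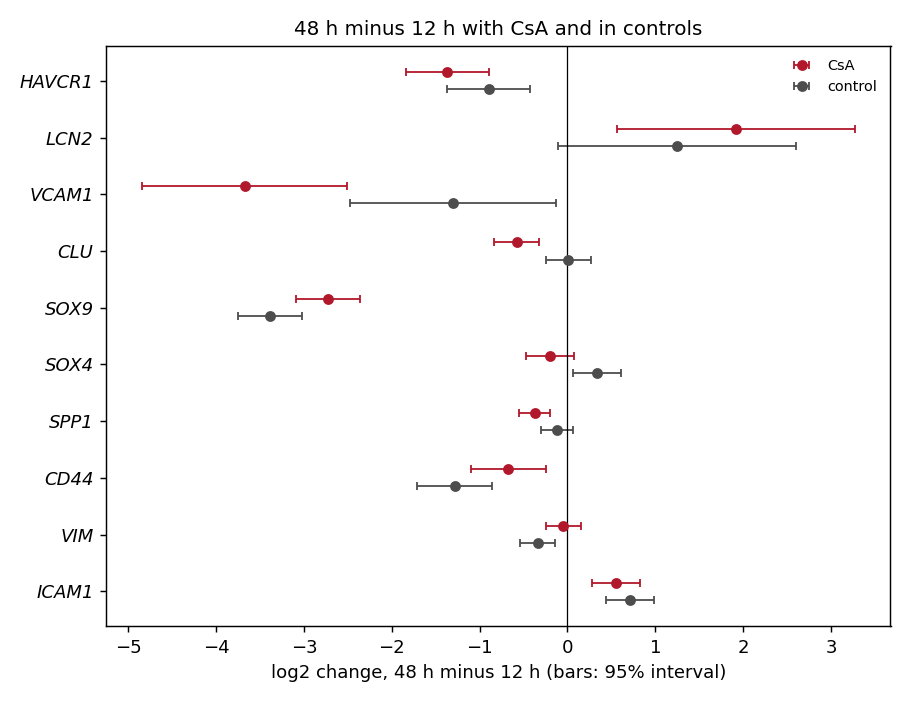
Log2 change of each gene at 48 h relative to 12 h (x axis) with CsA and in controls, with points at the estimate and bars for the 95% interval of limma's fit of all 12 arrays. The SOX9 change was -2.73 with CsA and -3.38 in controls, and the VCAM1 change was -3.67 with CsA and -1.31 in controls.

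A wider list of 36 tubular injury and repair genes had 26 measured members. At 48 h 2 of them rose with CsA, 0 fell and 24 did not pass (5 higher and 4 lower when all arrays shared 1 spread), with a median of 0.058. Over all genes 0.278% rose and 0.825% fell, and 6.2% and 9.89% did so with 1 shared spread. PAX8, a transcription factor that specifies the kidney tubule, averaged 11.90 ± 0.17 with CsA and 10.81 ± 0.16 in the control at 48 h (SD, n = 3, log2 change 1.09, SE 0.14, limma adjusted p = 0.0454). ATF3, a stress-induced transcription factor, averaged 13.52 with CsA and 12.80 in the control (0.71, SE 0.094, limma adjusted p = 0.0454), a call absent when all arrays shared 1 spread (0.200). It rose by 4.49 with CsA and 4.02 in the controls between the times, more than any of the 10 markers. DCDC2, a protein of cilia, gave -1.09 at 48 h (SE 0.24, limma adjusted p = 0.0795). The 48 h calls of PAX8 and ATF3 each held in 1 of 6 fits with 1 array removed, and ended with the replicate block (limma adjusted p = 0.0583 and 0.0750), with the direction kept throughout. At 12 h none of the 26 passed and the median was 0.049.

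Of 27 binding partners, receptors and sheddases of the markers, 20 were measured, and 1 of them fell at 48 h with CsA while 19 did not pass (1 higher and 3 lower when all arrays shared 1 spread), with a median of -0.048. The share of all genes that fell was 0.825%, and with 1 shared spread 6.2% rose and 9.89% fell. ITGB5, an integrin subunit that binds osteopontin, averaged 11.13 with CsA and 11.83 in the control (log2 change -0.69, SE 0.10, limma adjusted p = 0.0462). That call held in 0 of 6 fits with 1 array removed and ended with the replicate block (limma adjusted p = 0.0844). HAS3, an enzyme that makes hyaluronan, the ligand of CD44, gave -0.94 (SE 0.16, limma adjusted p = 0.0564), and it fell between the times both with CsA (-2.85) and in the controls (-1.79). ITGB3, another integrin subunit, gave 0.69 (SE 0.19, limma adjusted p = 0.116). ADAM10 and ADAM17, metalloproteases that shed surface proteins, gave -0.061 and 0.14. None of the 20 passed at 12 h, where the median was 0.025.

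Of 20 regulators upstream of these markers 19 were measured, and none passed with CsA at either time in limma, against 1.1% of all genes at 48 h and 0% at 12 h. When all arrays shared 1 spread 2 were higher and 4 lower at 48 h, against 6.2% and 9.89% of all genes. Their median was -0.28 at 48 h and 0.033 at 12 h. IRF1, an interferon-induced transcription factor, averaged 10.92 with CsA and 9.90 in the control at 48 h (log2 change 1.02, SE 0.25, limma adjusted p = 0.0952). STAT3, the transcription factor downstream of interleukin signals, averaged 10.21 with CsA and 10.68 in the control (-0.47, SE 0.15, limma adjusted p = 0.139). WWTR1, a coactivator of the Hippo pathway, gave -0.35 (SE 0.099, limma adjusted p = 0.116).

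The genes whose values ran most like each marker over the 12 arrays were found by Pearson correlation among the 11154 genes, as a description that mostly reflects the 4 group means. For SOX9 these were HSP90AA1 (r = 0.993) and CGAS (0.992), and for CD44 they were UBASH3B (0.986) and PFN1 (0.981). VCAM1 ran with IQGAP2 (0.979) and STAT3 (0.975), CLU with IFITM1 (0.974) and FAM162A (0.954), and SOX4 with ZNF503 (0.968) and CAB39 (0.963). HAVCR1 ran with ALMS1 (0.978) and EHBP1L1 (0.958), ICAM1 with PACC1 (0.973) and HCG18 (0.968), and SPP1 with TMEM255A (0.965) and ABCB1 (0.959). VIM ran with CCBE1 (0.948) and IQGAP1 (0.932), and LCN2 with ZNF91 (0.939) and COL27A1 (0.929). Among the markers themselves the highest r was 0.924, between VCAM1 and SPP1, followed by 0.905 between SOX9 and CD44, and the lowest was -0.839, between SOX9 and ICAM1.

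Markers of other cell types were measured beside these values. The summed log2 level of the proximal tubule list (12 genes) was 54.9 to 56.2 with CsA at 48 h, against 58.2 to 60.1 in the 48 h controls, and 59.7 to 60.0 with CsA against 59.6 to 59.9 in the controls at 12 h. CDH6, a cadherin of the tubule, fell with CsA at 48 h (log2 change -1.16, SE 0.13, limma adjusted p = 0.0450), a call that held in 1 of 6 fits with 1 array removed and ended with the replicate block (0.0583), and SLC4A4 and PDZK1, a bicarbonate transporter and a scaffold of transporters, gave -1.75 and -1.02. The fibroblast and mesangial list (5 genes, COL1A2 near background) summed to 26.0 to 30.9 with CsA and 30.3 to 32.1 in the control at 48 h. At 12 h it summed to 30.3 to 31.3 with CsA and 30.2 to 31.1 in the control. With CsA at 48 h LUM gave -1.68, COL1A1 -0.95 and DCN -0.86, while PDGFRB gave 0.21, with none passing. DCN had an SD of 1.41 with CsA at 48 h, and its lowest value on any array was 2.69. The epithelial list (7 genes) summed to 81.8 to 84.4 with CsA and 80.2 to 81.3 in the control at 48 h. At 12 h it summed to 83.1 to 83.4 with CsA and 82.6 to 83.4 in the control, with no member passing at either time. With CsA at 48 h KRT7 gave 1.13 (limma adjusted p = 0.0884), KRT19 0.79 and CLDN1 0.36, while EPCAM gave -0.23, KRT8 -0.036 and KRT18 -0.059. The podocyte list (3 genes, NPHS1 near background) summed to 20.3 to 20.8 with CsA and 19.8 to 21.3 in the control at 48 h. The distal tubule list (5 genes, SLC12A3 and CALB1 near background) summed to 21.8 to 22.7 and 22.1 to 22.9. With CsA at 48 h PODXL gave 0.46, SYNPO -0.67, SCNN1A -0.52, AQP2 0.10 and SLC12A1 0.028, with none passing. The part of these lists in the 48 h values of VCAM1, CLU, SOX4, SOX9 and CD44 was not tested.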

How the data were processed

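Total RNA of HK-2 cells was hybridized as biotinylated cRNA to 12 Affymetrix arrays, 3 per group. The authors deposited 1 log2 value per probe set and array. The submitters' processing notes name GCRMA, and no version or setting is given. GCRMA compresses dim probe sets, and the number of arrays limits the precision. No pair of arrays among 66 held identical values.

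A platform annotation gave 1 symbol to 41097 of 54675 probe sets, several to 1801 and none to 11777. Those with 1 symbol and a log2 value above 4 on at least 3 arrays (20631) were kept, and the brightest stood for its gene (11154 genes). CsA was compared with control in limma 3.58.1 (R 4.3.3) on the 6 arrays of a time, because the spread differs between times, and the times and the difference were compared on all 12. Tests were two-sided, with Benjamini-Hochberg adjustment over all genes, or over all probe sets for single probe sets, and a threshold of 0.05. The p-values measure the spread between these arrays. All 10 members were named, with up to 6 genes of each list called in a CsA comparison, or otherwise the 3 with the smallest p at 48 h, and the 2 most correlated genes of each member. ADAM10 and ADAM17, further cell type markers and the genes cited as above or near background were chosen after their values were seen. The members, lists and tests were chosen with earlier results of these data known. The fits were tested on simulated data. Promoter sequences come from RefSeq (GRCh38.p14).

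Arrays with the same replicate number deviated together between CsA and control at 12 h (correlations across genes of 0.467 to 0.577) and between the controls of both times (0.278 to 0.325), so the numbers, given by the labels, pair these arrays. At 48 h the correlations of CsA with control were -0.0506 to 0.300, below the minimum of 0.1 for 2 of 3 pairs. Between CsA at 48 h and CsA at 12 h they were 0.222, 0.0461 and -0.00583 for replicates 1, 2 and 3. The fits as reported did not use the pairing, which entered only the fit with the replicate block. Alternatives were 1 fit of all arrays, the replicate block, other filters, the mean of a gene's probe sets, centring, other priors, array weights and leaving out arrays.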

Additional observations from a re-analysis of the deposited data

Results flagged for a closer look

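The CsA effect differed between the times, by limma's test of the difference itself, for 4 genes of the lists beside the 10 markers. At 48 h minus 12 h the difference was -1.25 for CDH6 (limma adjusted p = 0.0163), -1.69 for SLC4A4 (0.0466), -1.06 for HAS3 (0.0278) and 0.99 for PAX8 (0.0278). The test called 1.12% of the 11154 genes. By list it called 1 of 26 injury and repair genes, 1 of 20 partners, receptors and sheddases, and 2 of 3 proximal tubule markers. It called 0 of 19 upstream regulators and no gene of the other lists. None of the 10 markers passed this test. With 1 array removed the call held in 9 of 12 fits for CDH6, 4 of 12 for PAX8, and 3 of 12 each for HAS3 and SLC4A4, with the same sign in all.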

How the results depend on the processing

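The number of markers called for CsA against control at 48 h was 0 as reported, 5 with all 12 arrays in 1 fit, 4 with array weights (18.1% of genes called) and 1 with trend and robust priors, and ran between 0 and 1 when 1 array was left out. For the difference between times it was 0 as reported, 3 with array weights (10.7% of genes called) and 0 to 3 when 1 array was left out, the 3 being VCAM1, CLU and SOX4 without control replicate 3 at 48 h. With the replicate number as a block the counts were 0 at 48 h, 0 at 12 h, 0 for the difference, 8 with CsA between times (55.5% of genes) and 7 in controls between times (47.6% of genes), where VCAM1 was added. That block changed no other member's call, and it ended the 48 h calls of PAX8, ATF3, ITGB5 and CDH6. The cause of these changes was not tested. Of all genes, 123 were called at 48 h as reported, 1795 with all 12 arrays in 1 fit, 2018 with array weights, 310 with trend and robust priors, 224 with a filter at 6, 187 with centring, 24 with the replicate block and 6 with no filter. No gene was called at 48 h without CsA replicate 1 or 2, or without control replicate 1 or 2, against 9 without control replicate 3 and 186 without CsA replicate 3. For the difference 125 were called as reported, 1199 with array weights, 396 with the replicate block, 192 with trend and robust priors, 49 with no filter, and 0 to 442 with 1 array left out.

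Signs turned for values that were not called. With the mean of probe sets the change was 0.059 for VIM at 12 h, -0.022 for CLU and 0.27 for SPP1 in controls between times, and 0.070 for ADAM10 with CsA at 48 h. With array weights it was 0.014 for CLU at 12 h and -0.051 for ICAM1 at 48 h. Without both 48 h arrays of number 1, and without CsA 48 h replicate 3 as well (added after seeing the data), CLU gave -0.064 in controls between times. Leaving out 1 array gave, for CsA at 12 h, -0.079 to 0.054 for CLU, -0.040 to 0.082 for CD44, -0.080 to 0.0044 for VIM, -0.18 to 0.11 for SOX9, -0.50 to 0.57 for LCN2 and -0.47 to 0.095 for VCAM1. At 48 h it gave -0.33 to 0.089 for HAVCR1 and -0.037 to 0.16 for ICAM1, and for CLU in controls between times -0.064 to 0.12.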
